A study of Mus musculus with 8 samples.

Results

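The genes described here are 74 mouse genes whose locus covers at least 300 kb. Each was detected in at least 1 of 4 groups of leukaemia cells with wild type or reduced RNA of the transcription elongation factor Cdc73. They were chosen by measured values: the span of the locus entry in the authors' deposited table, and a level of 1 FPKM or more (fragments scaled to transcript length and to library size) in at least 1 of the 4 groups. The table lists 23361 genes, of which 11158 reached 1 FPKM in some group. Of 934 genes spanning 300 kb or more, 324 were at 0 in all groups and 705 stayed under 1 FPKM, which left 229. Of these, 149 were left out because they share their locus entry with another gene, 4 because they lie on the sex chromosomes, 1 for a name turned into a date and 1 as a Zfp gene. The remaining 74 genes are called the very long genes below. Among them, 54 were at 1 FPKM or more in all 4 groups, 5 reached that level in wild type cells alone (Frmd4b, Itpr2, Ldlrad4, Nebl and Wdpcp) and 4 in floxed cells alone (Chrm3, Jazf1, Pcdh7 and Sbf2), so for these 9 the direction follows from the choice.

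The cells were established lines of mouse acute myeloid leukaemia from strain 129S6, derived from bone marrow and transformed with the fusion oncogene MLL-AF9. One line was Cdc73 fl/fl CreERT2, in which Cdc73 is flanked by recombination sites, and the other was Cdc73 +/+ CreERT2. Both carried MLL-AF9 and the inducible recombinase, and both were treated with 7.5 nM 4-hydroxytamoxifen (4OHT), which activates it, for 24 or 48 h. The 8 poly(A) RNA libraries formed 4 groups of 2 biological duplicates: floxed and wild type cells at each time. The comparison asks what excision of Cdc73 changes, but no untreated library was analysed here and the floxed and wild type cells are separate lines, so differences that preceded treatment are part of every comparison below.

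The authors' deposited table gives 1 FPKM value per gene and group, which is taken to combine the duplicates. The values below thus have no SD or n, and whether duplicates of the groups overlap is not seen in them. A gene is called higher or lower in floxed cells where the authors' q-value is under 0.05. Differences are given as log2(FPKM + 1) of floxed minus wild type cells, which understates the change of low genes, and folds are FPKM ratios given where both groups reach 1 FPKM. Total reads per library are not given, so the depth is unknown. Cdc73 itself was at 26.2 and 26.9 FPKM in wild type cells at 24 and 48 h and at 5.96 and 5.45 FPKM in floxed cells, which is 22.7% and 20.3% of wild type, and its row shares a locus entry with another gene. The defining myeloid genes were expressed, with all 15 markers found in the authors' deposited table at 1 FPKM or more. Spi1, also on the planned myeloid list, was not among those found under that name. Markers of other cell types were few. Cd79b and Thy1 of the lymphoid list reached 1 FPKM in some group. So did Gp1ba, Itga2b and Pf4 of the erythroid and megakaryocyte list and Fn1, Pecam1 and Vwf of the stromal and endothelial list. The sums of the stromal and endothelial list lay between 19.9 and 33.1 FPKM, while Cd3e, Pax5 and Col3a1 were at 0 in every group. Of 28 listed neuronal genes, many of them very long, 1 (Nrg1) reached 1 FPKM and 14 were at 0 in all groups. FPKM is relative to all other RNA, and in such bulk samples fewer cells that express a gene and less RNA of it per cell cannot be told apart.

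Cdc73 is a subunit of the PAF1 complex, which binds RNA polymerase II in the body of genes, aids elongation through chromatin and is needed for ubiquitination of histone H2B along transcribed genes. In MLL-rearranged leukaemia the complex is known as a partner of MLL fusion proteins at their target genes. A very long gene consists almost wholly of introns. A polymerase that starts on it must travel for hours, past many sites where transcription could stop early, before a complete messenger RNA is made. Genes of this length are most common among those of neurons and of cell adhesion, and myeloid cells use a small part of them. Those that a leukaemia cell does express include signalling proteins, regulators of the cytoskeleton, factors of membrane traffic and a few transcription factors.

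The label of the set was checked against annotated gene models. All 74 genes matched a RefSeq gene of assembly GRCm38.p6 and a GENCODE M21 gene, both on the same assembly as the build mm10 of the files, and all 74 are annotated as protein coding. The RefSeq gene spans 300 kb or more for 73 of them and the GENCODE gene for 72. The exception in both is Gm13152, whose locus entry covers 338 kb while its RefSeq gene covers 73.0 kb and its GENCODE gene 21.1 kb, so it is not a very long gene by annotation and counts are also given without it. Both annotations name it Zfp982, a zinc finger gene. Jazf1 falls just short in GENCODE, at 299.8 kb. For some genes the entry covers a part of the annotated gene, most of all for Immp2l, with an entry of 327 kb and a RefSeq gene of 932 kb, and Camta1 covers 945 kb in GENCODE against 802 kb in the table. Spans and their order below are those of the locus entry. In the GENCODE models the genes hold a median of 8.66 kb of exon sequence, a median of 2.1% of their span, and the median longest stretch without an exon is 118 kb. The transcript with the most exons has a median of 18, from 4 to 74. The table's names Bre and Diap3 are the genes now called Babam2 and Diaph3.

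Promoter windows of 250 bases before to 50 bases after the annotated start were found in the RefSeq table (GRCm38.p6) for 58 of the 74 genes. The windows shown belong to the genes of widest locus entry among those called lower (Exoc4) and called higher (Cdkal1) at 48 h, and to the genes with the largest called decrease (Rsrc1) and increase (Pcdh7) among the 58. They are printed 5′ to 3′ on the strand of the gene, with each CpG dinucleotide in capitals. The Exoc4 window is chr6:33248878-33249177 on the plus strand and holds 13 CpG, and the Rsrc1 window is chr3:66985412-66985711 on the plus strand and holds 15. The Cdkal1 window is chr13:29855624-29855923 on the minus strand and holds 10, and the Pcdh7 window is chr5:57717831-57718130 on the plus strand and holds 11. The annotated start lies 22, 10, 85 and 60 bases from the edge of the table's locus for Exoc4, Rsrc1, Cdkal1 and Pcdh7. For 5 of the 58 genes (Foxp1, Gm13152, Immp2l, Mctp1 and Pde4b) it lies 85648 to 604674 bases away, so their window may belong to another start than the one measured.
Exoc4: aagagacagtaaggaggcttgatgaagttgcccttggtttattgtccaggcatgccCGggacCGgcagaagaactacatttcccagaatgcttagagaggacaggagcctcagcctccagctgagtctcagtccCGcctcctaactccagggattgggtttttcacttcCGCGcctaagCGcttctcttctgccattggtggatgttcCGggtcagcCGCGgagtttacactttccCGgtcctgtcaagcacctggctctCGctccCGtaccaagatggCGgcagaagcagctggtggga
Rsrc1: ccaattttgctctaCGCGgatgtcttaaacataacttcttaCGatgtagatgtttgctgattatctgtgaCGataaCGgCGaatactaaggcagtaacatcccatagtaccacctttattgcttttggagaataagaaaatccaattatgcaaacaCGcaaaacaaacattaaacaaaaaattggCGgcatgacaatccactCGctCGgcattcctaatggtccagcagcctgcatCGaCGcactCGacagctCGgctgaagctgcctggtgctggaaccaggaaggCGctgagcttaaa
Cdkal1: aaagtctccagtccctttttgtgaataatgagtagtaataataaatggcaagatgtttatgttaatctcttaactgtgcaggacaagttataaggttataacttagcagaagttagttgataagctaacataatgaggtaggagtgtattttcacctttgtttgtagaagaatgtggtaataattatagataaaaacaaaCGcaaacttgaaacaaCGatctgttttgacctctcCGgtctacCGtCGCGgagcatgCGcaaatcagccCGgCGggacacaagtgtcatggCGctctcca
Pcdh7: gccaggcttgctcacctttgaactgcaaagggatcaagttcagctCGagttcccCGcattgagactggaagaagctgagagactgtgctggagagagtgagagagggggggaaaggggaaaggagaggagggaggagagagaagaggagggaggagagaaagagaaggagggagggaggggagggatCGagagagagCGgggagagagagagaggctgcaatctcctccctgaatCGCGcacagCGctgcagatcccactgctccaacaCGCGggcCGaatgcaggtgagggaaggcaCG

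Over the 58 windows the median was 21 CpG and 60.8% G and C, beside 7 CpG and 52.7% over all 32851 windows of the RefSeq table, which include genes that these cells do not express. The letters GGGCGG, searched on both strands as the core of the GC box, were present in 60.3% of the 58 windows and in 35.7% of all windows. TATAAA was found in 1 of the 58 windows (1.72%) and in 13.6% of all windows. The shares for GAGGAA, the core of sites for the myeloid factor PU.1, were 29.3% and 28.3%, and those for the AP-1 site TGACTCA were 5.17% and 5.20%. Of the windows of genes called lower at 48 h, 22 of 31 (71.0%) held GGGCGG, against 4 of 8 for genes called higher and 9 of 19 for genes not called. Without the 5 genes of distant start the shares were 60.4% of 53 windows and, by call, 20 of 29, 4 of 8 and 8 of 16. The printed windows of Exoc4, Rsrc1, Cdkal1 and Pcdh7 hold fewer CpG than the median of the 58. These matches describe letters in a window and were not tested against binding or activity.

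At 48 h, very long genes were more often lower than higher in floxed cells. Of the 74, 36 (48.6%) were called lower and 10 (13.5%) higher, while over all 11039 tested expressed genes 31% were called lower and 25.7% higher. The median difference was -0.28 on the log2(FPKM + 1) scale, against -0.06 over all expressed genes, and single genes ranged from -1.27 to 1.30. Counting values of any size, 54 genes lay lower in floxed cells and 20 higher, beside 6010 lower and 5111 higher of all 11158 expressed genes. Without Gm13152 the counts were 36 lower and 10 higher of 73. These counts carry no test of their own, since genes are not replicates. They also rest on the exclusion of genes that share a locus entry: with the excluded genes kept in, 70 of 224 (31.2%) were called lower, about the share over all genes. Most of those added genes are short genes listed under a merged locus, as 34 of the 149 have a RefSeq gene of 300 kb or more and their median RefSeq span is 31.1 kb. When span was taken from RefSeq and no gene was excluded, 64 of 130 (49.2%) were called lower, an alternative chosen after seeing the data.

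**Figure D1:**
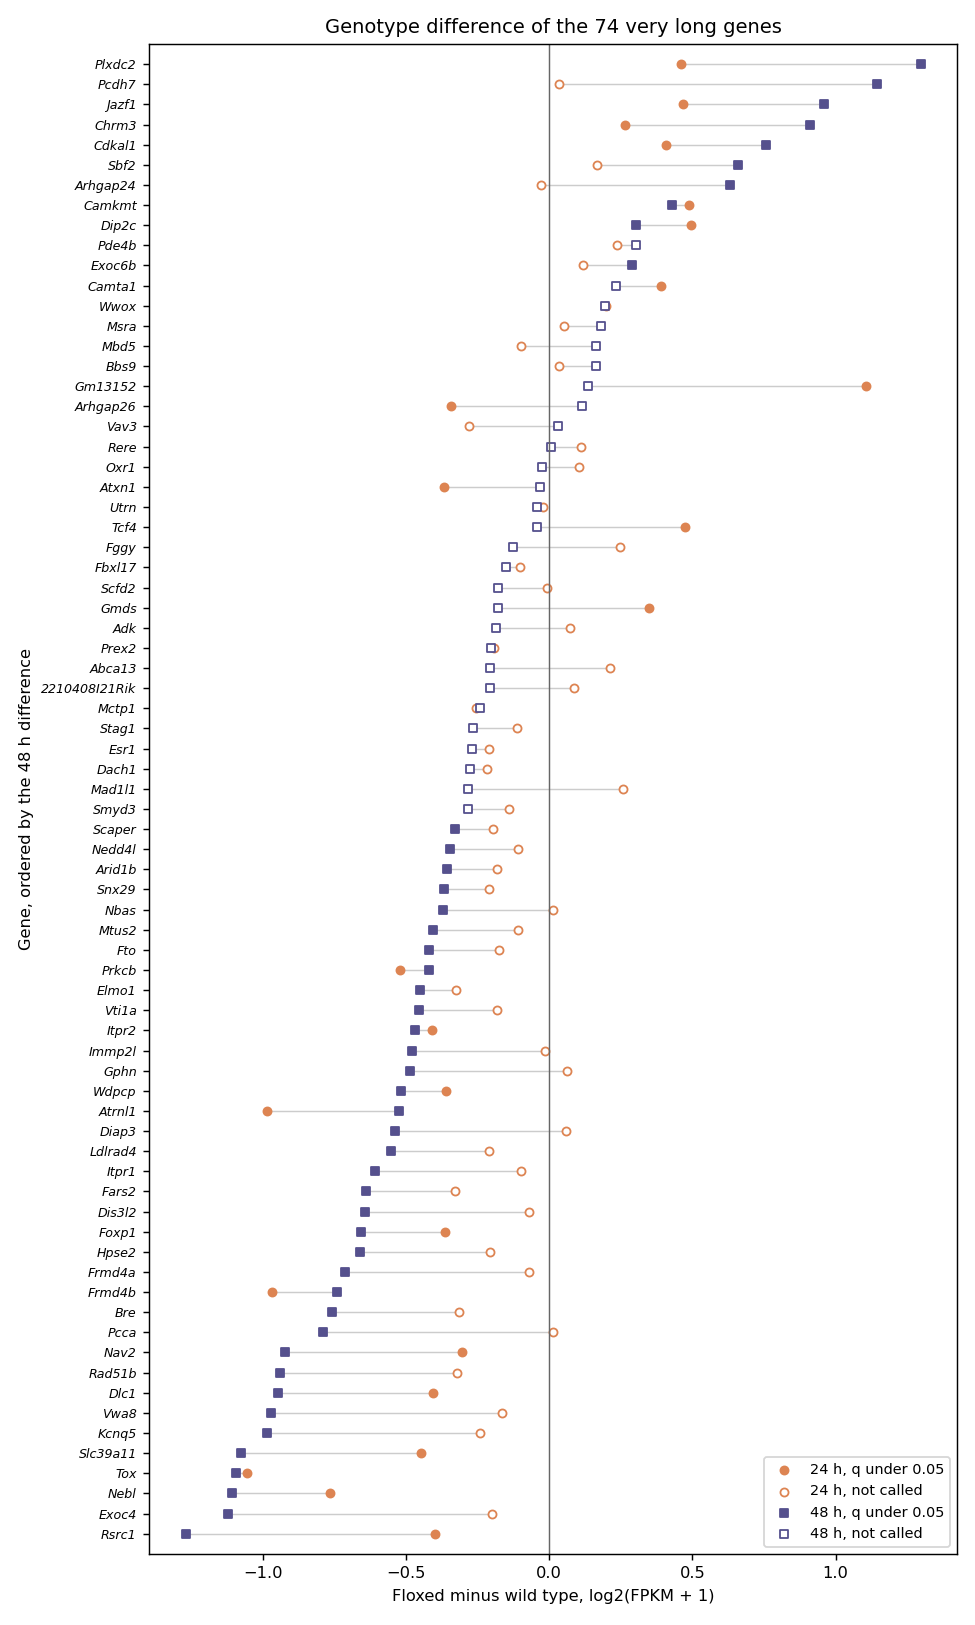
Difference of floxed minus wild type cells in log2(FPKM + 1) for each of the 74 very long genes (rows, ordered by the 48 h value), at 24 h (circles) and 48 h (squares), with filled symbols for a q under 0.05 in the authors' deposited table. The 48 h values run from -1.27 (Rsrc1) to 1.30 (Plxdc2), and 54 of the 74 lie left of 0.

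The largest called decrease at 48 h was that of Rsrc1, which encodes an arginine- and serine-rich protein linked to splicing (373 kb, 16.5 FPKM in wild type and 6.26 FPKM in floxed cells at 48 h). At 24 h its levels were 16.5 and 12.2 FPKM, so floxed cells were lower at both times. The gap widened from 1.34-fold at 24 h to 2.63-fold at 48 h, with q = 0.0166 and q = 0.000165 in the authors' deposited table. That last value was the lowest q of any of the 74 genes at 48 h and is shared by many of them. Exoc4, a subunit of the exocyst complex that tethers secretory vesicles to the plasma membrane, followed with the widest locus entry among the genes called lower (724 kb, chr6:33249150-33972930). Its level was 19.4 FPKM in wild type and 16.8 FPKM in floxed cells at 24 h, and 18.9 and 8.16 FPKM at 48 h. The 24 h difference was not called, and the 48 h level was 2.32-fold lower (q = 0.000165 in the authors' deposited table).

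Besides Rsrc1 and Exoc4, 3 genes were at least 2-fold lower at 48 h with both groups at 1 FPKM or more, namely Slc39a11, Tox and Vwa8. Slc39a11, a zinc transporter and the most abundant of the 3, stood at 43.2 and 39.4 FPKM in wild type cells at 24 and 48 h and at 31.4 and 18.2 FPKM in floxed cells. The floxed values were lower at both times, by 1.38-fold and 2.17-fold (q = 0.00419 and 0.000165 in the authors' deposited table). Tox, a nuclear HMG-box protein known from T cell development, was at 14.3 and 12.7 FPKM in wild type cells and at 6.37 and 5.40 FPKM in floxed cells. Its decrease was already 2.24-fold at 24 h and 2.35-fold at 48 h (q = 0.000449 and 0.000165 in the authors' deposited table). Vwa8, a mitochondrial protein with a von Willebrand domain, held 10.8 and 10.6 FPKM in wild type cells and 9.56 and 4.94 FPKM in floxed cells, a 2.15-fold lower level at 48 h. Tox was thus low in floxed cells from the first time measured, while Vwa8 was called lower at 48 h and not at 24 h.

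**Figure D2:**
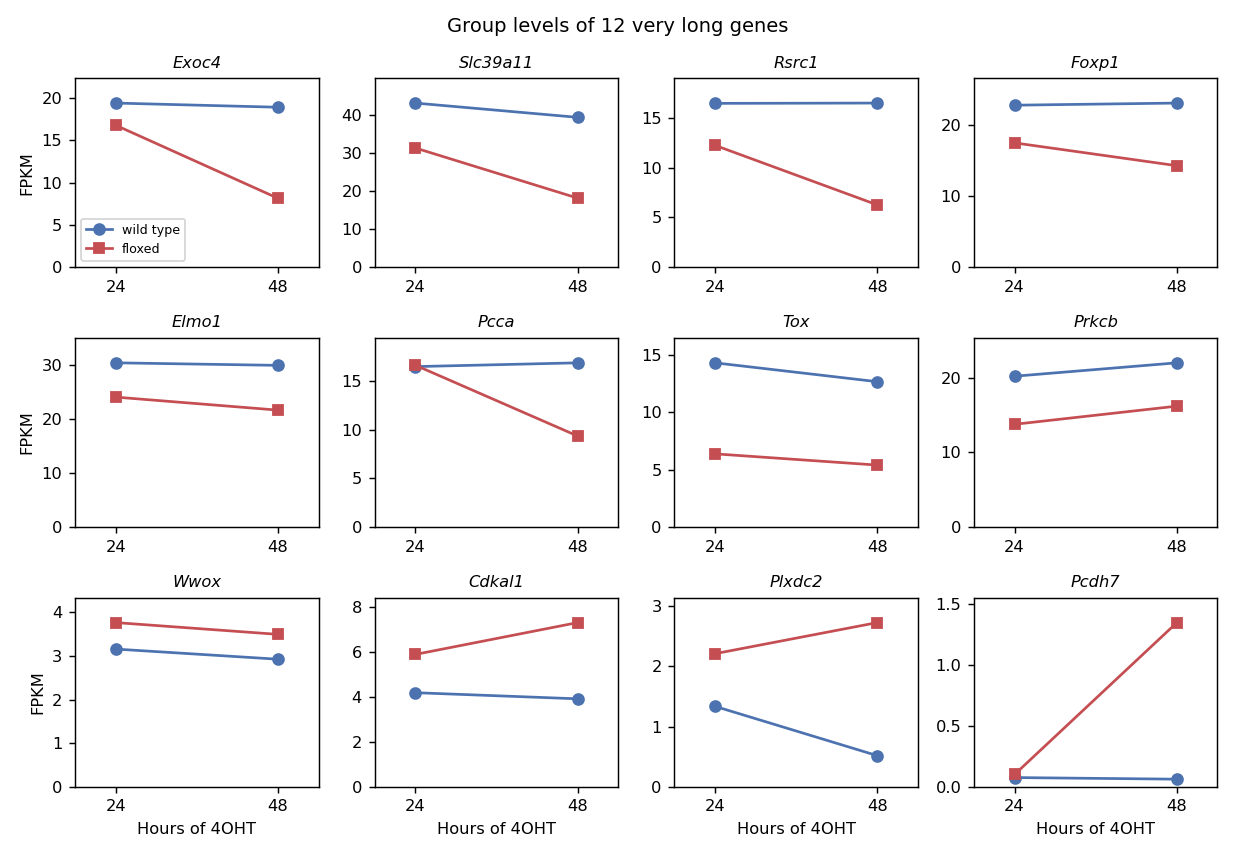
Levels in FPKM (vertical axis from 0, scaled per gene) at 24 and 48 h of 4OHT for 12 of the named very long genes, in wild type cells (circles) and floxed cells (squares), 1 value per group, taken to combine the duplicates. Exoc4, Rsrc1, Slc39a11 and Pcca fall between the times in floxed cells while the wild type lines stay nearly level, Tox is low in floxed cells at both times, and Pcdh7 reaches 1.35 FPKM in floxed cells at 48 h alone.

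A further group of genes called lower at 48 h started from low levels and dropped under 1 FPKM in floxed cells, so no fold is given. Nebl, which encodes the actin-binding protein nebulette, was at 1.54 and 1.78 FPKM in wild type cells and at 0.494 and 0.290 FPKM in floxed cells. Kcnq5, a voltage-gated potassium channel subunit with a locus of 564 kb, was at 2.03 and 1.97 FPKM in wild type and at 1.56 and 0.498 FPKM in floxed cells. Dlc1, a GTPase-activating protein, was at 3.27 and 2.53 FPKM in wild type and at 2.22 and 0.830 FPKM in floxed cells. For Nebl and Dlc1 the 24 h difference was also called, and for Kcnq5 it was not (q = 0.0620 in the authors' deposited table). Rad51b, a gene of homologous recombination, was at 2.53 and 2.80 FPKM in wild type and at 1.83 and 0.985 FPKM in floxed cells. Nav2, a microtubule-associated protein of the neuron navigator family, was at 1.73 and 2.11 FPKM in wild type and at 1.21 and 0.641 FPKM in floxed cells. The 48 h differences of these 5 genes were between -0.92 and -1.11 on the log2(FPKM + 1) scale.

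The 10 very long genes called higher at 48 h were led by Plxdc2, Pcdh7, Jazf1, Chrm3 and Cdkal1. Plxdc2, a membrane protein with a plexin domain, was at 1.34 and 0.518 FPKM in wild type cells at 24 and 48 h and at 2.21 and 2.73 FPKM in floxed cells. Its 48 h difference of 1.30 on the log2(FPKM + 1) scale was the largest increase among the called genes, and its wild type value was lower at 48 h than at 24 h. Cdkal1, an enzyme that modifies a transfer RNA, had the widest locus entry of the genes called higher (530.3 kb). It stood at 4.18 and 3.91 FPKM in wild type and at 5.88 and 7.29 FPKM in floxed cells, so floxed cells exceeded wild type by 1.41-fold at 24 h and by 1.87-fold at 48 h (q = 0.0122 and 0.000165 in the authors' deposited table). Jazf1, a zinc finger protein of a histone acetyltransferase complex, was at 0.946 and 0.806 FPKM in wild type and at 1.69 and 2.51 FPKM in floxed cells.

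Chrm3, a muscarinic acetylcholine receptor, was at 0.198 and 0.193 FPKM in wild type cells and at 0.441 and 1.24 FPKM in floxed cells. Pcdh7, a protocadherin of cell adhesion, was at 0.0758 and 0.0625 FPKM in wild type cells, 0.101 FPKM in floxed cells at 24 h and 1.35 FPKM in floxed cells at 48 h. At 24 h it has q = 1 in the authors' deposited table, counted here as not tested. Pcdh7, Chrm3 and Sbf2, a myotubularin-related pseudophosphatase, entered the set through floxed cells at 48 h alone and Jazf1 through floxed cells at both times, so the direction of these 4 genes follows from how they were chosen. Arhgap24, a GTPase-activating protein for Rac, was at 1.41 and 0.870 FPKM in wild type and at 1.37 and 1.90 FPKM in floxed cells, with no call at 24 h. All 10 genes called higher at 48 h had low levels, at most 7.29 FPKM in any group, the value of Cdkal1 in floxed cells at 48 h.

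The role lists used next are small and incomplete, as Dlc1, Nebl, Pcdh7, Camta1 and Rsrc1 are in none of them. Their counts were not tested. For reference, 31% of all tested expressed genes were called lower and 25.7% higher at 48 h, and 48.6% and 13.5% of the 74. At 24 h the shares were 14.2% and 13.4% of all tested expressed genes, and 19.2% and 13.7% of the tested very long genes. Of 10 genes listed as transcription factors and chromatin proteins, 3 were called lower and 1 higher at 48 h, and 3 lower and 2 higher at 24 h. The most abundant, the forkhead factor Foxp1 (chr6:98925342-99435345), was at 22.8 and 23.1 FPKM in wild type cells and at 17.5 and 14.3 FPKM in floxed cells. It was lower at both times, by 1.30-fold and 1.62-fold (q = 0.0249 and 0.000165 in the authors' deposited table). The others called lower at 48 h were Tox and Arid1b, a subunit of the SWI/SNF remodelling complex, at 8.54 FPKM in wild type and 6.45 FPKM in floxed cells at that time. Rere, a nuclear receptor corepressor, was at 17.8 and 17.9 FPKM in wild type and floxed cells, respectively, at 48 h, and Dach1, a transcriptional repressor, at 13.3 and 10.8 FPKM, neither of them called. Smyd3, a lysine methyltransferase with a locus of 563 kb, was at 4.75 and 3.72 FPKM and not called. Tcf4, an E protein, was called higher at 24 h (3.82 FPKM in wild type and 5.70 FPKM in floxed cells) and not at 48 h (3.67 and 3.53 FPKM).

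Of 4 genes listed for signalling, 3 were called lower at 48 h and none higher, and 2 were called lower at 24 h. Prkcb, protein kinase C beta, was at 20.2 and 22.0 FPKM in wild type cells and at 13.7 and 16.2 FPKM in floxed cells. Floxed cells were 1.47-fold lower at 24 h and 1.36-fold at 48 h (q = 0.000449 and 0.0180 in the authors' deposited table). Prkcb was thus one of 3 genes called lower at 48 h whose gap was not wider then than at 24 h. Itpr1 and Itpr2 encode receptors for inositol trisphosphate that release calcium from the endoplasmic reticulum. Itpr1 was at 6.72 and 4.07 FPKM in wild type and floxed cells, respectively, at 48 h, and Itpr2, called lower at both times, at 1.04 and 0.475 FPKM. Pde4b, a cyclic AMP phosphodiesterase, was at 2.25 and 3.01 FPKM at 48 h and was not called (q = 0.0613 in the authors' deposited table).

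Among 11 genes listed as regulators of GTPases, the cytoskeleton and adhesion, 6 were called lower and 2 higher at 48 h. At 24 h 3 of them were called lower and none higher. Dlc1, Nebl and Pcdh7, described above, are not on that list. Elmo1, a partner of Dock proteins in the activation of Rac, was the most abundant at 30.4 and 29.95 FPKM in wild type and 24.1 and 21.7 FPKM in floxed cells. It was called at 48 h (1.38-fold lower, q = 0.00963 in the authors' deposited table) and missed the threshold at 24 h (q = 0.0531 in the authors' deposited table). Diap3, a formin that elongates actin filaments, was at 14.1 FPKM in wild type and 9.37 FPKM in floxed cells at 48 h, a 1.5-fold lower level. The FERM domain scaffold genes Frmd4a and Frmd4b were both called lower at 48 h, at 6.45 and 3.55 FPKM for Frmd4a and at 1.49 and 0.492 FPKM for Frmd4b. Exoc6b, another exocyst subunit, went the other way from Exoc4, with 1.81 FPKM in wild type and 2.43 FPKM in floxed cells at 48 h (q = 0.0487 in the authors' deposited table, close to the threshold). Vav3, a guanine nucleotide exchange factor, was at 15.0 and 15.4 FPKM at 48 h and was not called.

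The 2 genes of the RNA processing list, Dis3l2 and Fars2, were both called lower at 48 h and neither at 24 h. Dis3l2, an exoribonuclease, was at 7.69 FPKM in wild type and 4.57 FPKM in floxed cells at 48 h, a 1.68-fold lower level. Fars2, the mitochondrial phenylalanyl-tRNA synthetase, was at 7.48 and 4.45 FPKM, also 1.68-fold lower. Of 4 genes listed for DNA repair, replication and mitosis, Rad51b was called lower and Cdkal1 higher at 48 h, although the product of Cdkal1 acts on transfer RNA. The other two were the cohesin subunit Stag1, at 18.1 and 14.9 FPKM in wild type and floxed cells, respectively, at 48 h, and the spindle checkpoint gene Mad1l1, at 17.9 and 14.6 FPKM. Neither Stag1 nor Mad1l1 was called at either time.

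Of 13 genes listed for membrane traffic, ubiquitin and metabolism, 7 were called lower and 1 (Sbf2) higher at 48 h. At 24 h none of them was called lower and Gmds was called higher. Pcca, which encodes the alpha subunit of propionyl-CoA carboxylase, was at 16.5 FPKM in wild type and 16.7 FPKM in floxed cells at 24 h, and at 16.9 and 9.37 FPKM at 48 h. The 2 lines were level at 24 h, and at 48 h floxed cells were 1.80-fold lower (q = 0.000165 in the authors' deposited table). Fto, an RNA demethylase, was at 22.8 FPKM in wild type and 16.8 FPKM in floxed cells at 48 h, 1.36-fold lower (q = 0.0217 in the authors' deposited table). Also called lower at 48 h were Gphn (gephyrin, of molybdenum cofactor synthesis), Vti1a (a SNARE), Nedd4l (a ubiquitin ligase), Snx29 (a sorting nexin) and Immp2l (a mitochondrial inner membrane peptidase). Gmds, the GDP-mannose dehydratase of fucose synthesis, was at 24.2 FPKM in wild type and 31.1 FPKM in floxed cells at 24 h (1.29-fold higher) and at 26.2 and 23.0 FPKM at 48 h. The remaining 30 genes belong to no list, and of them 14 were called lower and 5 higher at 48 h and 6 lower and 6 higher at 24 h.

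The other genes called lower at 48 h moved by smaller steps or lay near 1 FPKM. Gphn went from 11.0 FPKM in wild type to 7.55 FPKM in floxed cells at 48 h, Nbas, of transport between the endoplasmic reticulum and the Golgi, from 10.4 to 7.81 FPKM, and Vti1a from 9.63 to 6.75 FPKM. None of the 3 was called at 24 h, when Gphn was at 10.5 and 11.1 FPKM, Nbas at 10.1 and 10.3 FPKM and Vti1a at 10.3 and 8.92 FPKM. Nedd4l was at 2.80 and 1.99 FPKM at 48 h and Scaper at 1.56 and 1.04 FPKM. The following 5 ended under 1 FPKM in floxed cells at 48 h: Hpse2 at 2.09 and 0.952 FPKM, Mtus2 at 1.59 and 0.958 FPKM, Snx29 at 1.27 and 0.760 FPKM, Ldlrad4 at 1.16 and 0.476 FPKM and Wdpcp, a planar cell polarity effector, at 1.16 and 0.505 FPKM. Of the 36 genes called lower, 23 stayed at 1 FPKM or more in both groups at 48 h.

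The 22 genes called at neither time had 48 h differences from -0.29 (Smyd3) to 0.30 (Pde4b) on the log2(FPKM + 1) scale. Scfd2 was at 8.38 FPKM in wild type and 7.28 FPKM in floxed cells at 48 h, and Abca13, a transporter of the ABC family, at 7.19 and 6.10 FPKM. Utrn, the dystrophin relative utrophin, was level at 3.07 and 2.95 FPKM, and Bbs9, a subunit of the BBSome of cilia, was at 4.39 and 5.04 FPKM. Esr1, the estrogen receptor that also binds 4OHT, was at 2.84 and 2.65 FPKM in wild type cells and at 2.32 and 2.03 FPKM in floxed cells at 24 and 48 h. The others were Fbxl17, Fggy, Mbd5, Prex2 and 2210408I21Rik, all at most 2.22 FPKM in any group, beside Adk, Dach1, Mad1l1, Mctp1, Msra, Oxr1, Rere, Stag1, Vav3 and Wwox, whose values are given with their roles, level or span.

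The 24 h comparison showed fewer calls and less of a lean to either side. Of 73 tested genes, 14 (19.2%) were called lower and 10 (13.7%) higher in floxed cells, and over 10987 tested expressed genes the shares were 14.2% lower and 13.4% higher. The median difference was -0.11 on the log2(FPKM + 1) scale, against -0.01 over all expressed genes. Of 74 values, 46 were lower and 28 higher, beside 5699 lower and 5419 higher of all 11158 expressed genes. The share called higher was near that over all genes. The largest called decreases were those of Tox (-1.05), Atrnl1 (-0.99), Frmd4b (-0.97) and Nebl (-0.76), where Frmd4b and Nebl reached 1 FPKM in wild type cells alone. Atrnl1, an attractin-like membrane protein, was at 6.48 and 5.31 FPKM in wild type cells and at 2.78 and 3.39 FPKM in floxed cells, so its gap was wider at 24 h (2.33-fold lower) than at 48 h (1.57-fold lower).

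The largest called increase at 24 h was that of Gm13152, from 1.37 FPKM in wild type to 4.11 FPKM in floxed cells (2.99-fold higher), with 1.23 and 1.45 FPKM at 48 h. It is the gene whose annotated span falls far short of its locus entry, and without it 9 of 72 tested genes were called higher at 24 h. The next were Dip2c, at 1.60 and 2.67 FPKM, and Camkmt, a calmodulin methyltransferase, at 1.11 and 1.96 FPKM, both also called higher at 48 h. Atxn1, a transcriptional corepressor, was called lower at 24 h alone, at 1.74 FPKM in wild type and 1.12 FPKM in floxed cells, with 1.79 and 1.73 FPKM at 48 h. The other genes called at 24 h and not at 48 h were Arhgap26, Camta1, Gm13152, Gmds and Tcf4, which makes 6 in all.

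Calls at the 2 times come from separate libraries and went the same way wherever both were made. Of the 14 genes called lower at 24 h, 12 (85.7%) were also called lower at 48 h, which is 33.3% of the 36 called lower then. Over all expressed genes the same shares were 78.2% of 1564 and 35.7% of 3425. Those 12 were Atrnl1, Dlc1, Foxp1, Frmd4b, Itpr2, Nav2, Nebl, Prkcb, Rsrc1, Slc39a11, Tox and Wdpcp. Of the 10 called higher at each time, 6 (60%) were shared, namely Camkmt, Cdkal1, Chrm3, Dip2c, Jazf1 and Plxdc2. Over all expressed genes, the calls shared were 76.0% of the 1473 higher at 24 h and 39.4% of the 2842 higher at 48 h. No gene was called in opposite directions, 52 were called at either time and 22 at neither. These counts were not made over all expressed genes, so they do not set the very long genes apart. At 24 h alone, 49 of 73 tested very long genes were not called, beside 7950 of 10987 tested expressed genes. At 48 h alone it was 28 of 74 beside 4772 of 11039. Of the 36 called lower at 48 h, 33 (91.7%) lay further from wild type at 48 h than at 24 h on the log2(FPKM + 1) scale, the exceptions being Atrnl1, Frmd4b and Prkcb. The share was 94.6% over all expressed genes called lower at 48 h, and choosing genes by their 48 h call favours it. Whether the genotype difference itself changed between 24 and 48 h was not tested.

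The genes of widest locus did not stand together. Wwox, an oxidoreductase gene at a common fragile site and the widest by locus entry (913 kb, chr8:114439652-115352712), was at 3.16 and 2.92 FPKM in wild type cells and at 3.76 and 3.49 FPKM in floxed cells, with no call at either time. Camta1, a calmodulin-binding transcription activator (802 kb), was at 3.11 and 2.99 FPKM in wild type and at 4.38 and 3.69 FPKM in floxed cells, called higher at 24 h (1.41-fold, q = 0.0266 in the authors' deposited table) and not at 48 h. Exoc4 and Nav2 came next in span and were called lower at 48 h. Mctp1, a calcium-binding membrane protein (647 kb), was at 8.58 FPKM in wild type and 7.09 FPKM in floxed cells at 48 h and was not called. Hpse2 (heparanase 2, 599.8 kb) and Kcnq5 were called lower at 48 h, Smyd3 was not called, Cdkal1 was called higher and Atrnl1 lower. The 10 widest genes thus held 5 called lower, 1 called higher and 4 not called at 48 h. Of all 74, 48.6% were called lower and 13.5% higher, and of all tested expressed genes 31% and 25.7%. Immp2l, the other fragile-site gene of the set, whose entry of 327 kb covers a part of its annotated 932 kb, was at 1.01 and 0.443 FPKM at 48 h and was called lower.

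**Figure D3:**
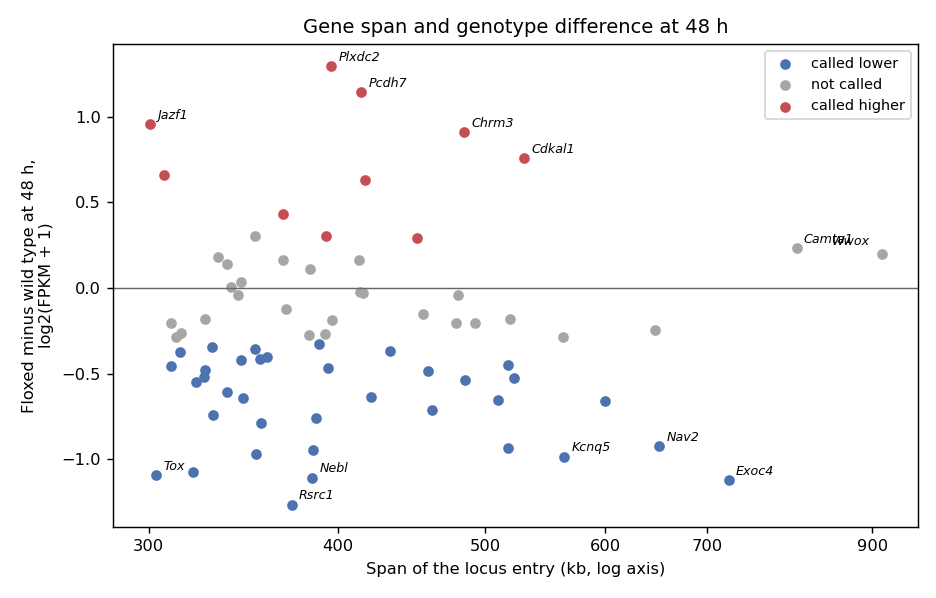
Difference of floxed minus wild type cells at 48 h in log2(FPKM + 1) against the span of the locus entry in kb (log axis) for the 74 very long genes, coloured by the call in the authors' deposited table. Genes called lower lie between 303 kb (Tox) and 724 kb (Exoc4) and genes called higher between 301 kb (Jazf1) and 530.3 kb (Cdkal1), and the 2 widest, Camta1 and Wwox, lie just above 0.

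Within the 74 genes, span and difference were not ordered together. Spearman's rank correlation across genes was 0.006 at 24 h and -0.0008 at 48 h, given as a description over 74 genes that share the same libraries. At 48 h, 23 of 44 genes of 300 to 400 kb were called lower and 5 higher, with a median difference of -0.34 in log2(FPKM + 1). Of 25 genes of 400 to 600 kb, 11 were called lower and 5 higher (median -0.21), and of 5 genes of 600 kb or more, 2 were called lower and none higher (median -0.24). By level, the 20 genes with a mean of 5 to 15 FPKM over the groups had 13 called lower (65%) and a median of -0.47, beside 37.3% and -0.14 for shorter genes of that level. The 14 genes of 2 to 5 FPKM did not lie lower than shorter genes, with 4 called lower (28.6%) and a median of -0.04, beside 34.8% and -0.06. The 14 genes of 15 to 50 FPKM had 7 called lower (50%) and none higher, with a median of -0.35. Shorter genes of 15 to 50 FPKM had 34.7% lower, 23.7% higher and a median of -0.10. The 26 genes under 2 FPKM had 12 called lower (46.2%) and 8 higher (30.8%) with a median of -0.21. Shorter genes of that level had 24.6% lower, 46.7% higher and a median of 0.31. All 5 genes at 1 FPKM in wild type cells alone and all 4 in floxed cells alone are among the 26. Their direction follows from the choice, and the contrast was not recomputed without them.

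Across classes of span with the same exclusions, the share called lower at 48 h was 25.5% for genes under 10 kb, 33.2% for 10 to 30 kb, 38.2% for 30 to 100 kb, 37.8% for 100 to 300 kb and 48.6% for the very long genes. The share called higher went down along the same classes, at 36.1%, 28.4%, 22.0%, 21.7% and 13.5%. Median differences at 48 h were 0.08, -0.07, -0.15, -0.14 and -0.28 in log2(FPKM + 1). The median wild type level at 48 h also fell along the classes, at 17.5, 17.0, 13.1, 8.02 and 3.79 FPKM. The classes were not matched for level, and the part of level in these shares was not tested. At 24 h the classes were closer, with 15.2%, 17.2%, 13.9%, 17.8% and 19.2% called lower and 17.9%, 13.1%, 12.6%, 14.5% and 13.7% called higher. Over 8400 genes of any span, Spearman's rank correlation of span and difference was -0.03 at 24 h and -0.15 at 48 h. The summed level of the myeloid markers moved with the 48 h difference, from 16111 FPKM in wild type to 31888 FPKM in floxed cells (17892 and 15981 FPKM at 24 h), and its part in the result was not tested. The sums of the lymphoid markers were 2.01 and 9.99 FPKM at 48 h (2 of 14 at 1 FPKM or more, Cd79b and Thy1), of the erythroid and megakaryocyte markers 2.63 and 14.9 FPKM (3 of 12), of the stromal and endothelial markers 19.9 and 26.7 FPKM (3 of 14) and of the neuronal markers 4.27 and 5.56 FPKM, and their part was not tested either.

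**Figure D4:**
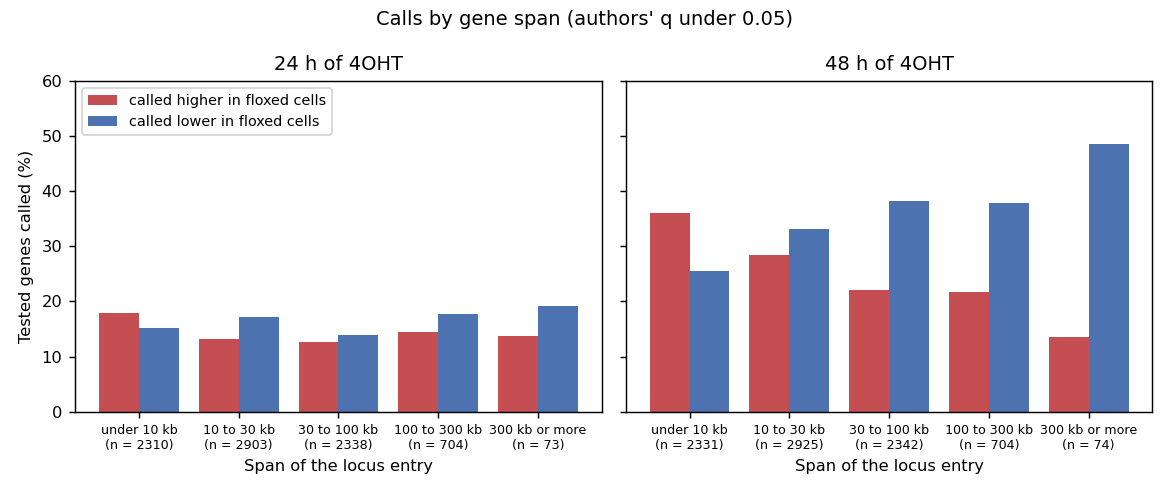
Percentage of tested genes called higher or lower in floxed cells (vertical axis, q under 0.05 in the authors' deposited table) in 5 classes of locus span (horizontal axis, with the number tested), at 24 h (left) and 48 h (right). At 48 h the share called lower is 48.6% at 300 kb or more and 25.5% under 10 kb, while at 24 h the shares called lower lie between 13.9% and 19.2%. The classes are not matched for level.

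The most abundant very long genes showed both outcomes. Msra, a methionine sulfoxide reductase with the highest mean level, was at 37.8 and 36.1 FPKM in wild type and at 39.3 and 41.0 FPKM in floxed cells, with no call. Bre, a subunit of the BRISC deubiquitinase, was at 42.1 and 39.4 FPKM in wild type and at 33.6 and 22.9 FPKM in floxed cells, called lower at 48 h (1.72-fold, q = 0.000165 in the authors' deposited table). Adk, adenosine kinase, was at 34.1 FPKM in wild type and 29.9 FPKM in floxed cells at 48 h, and Oxr1, of resistance to oxidation, at 25.8 and 25.4 FPKM, neither called. With Slc39a11, Elmo1, Fto, Foxp1 and Prkcb also lower and Gmds not called at 48 h, 6 of the 10 most abundant genes were called lower at 48 h and none higher. Among shorter genes of 15 to 50 FPKM, 34.7% were called lower and 23.7% higher at 48 h. Summed over all 74 genes, the level was 659 and 648 FPKM in wild type cells and 606 and 495 FPKM in floxed cells at 24 and 48 h. The sum over the whole table was 665619 and 653299 FPKM in wild type and 656874 and 699193 FPKM in floxed cells.

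Between the times, the very long genes shifted in floxed cells and hardly in wild type cells. The median change from 24 to 48 h in log2(FPKM + 1) was -0.21 in floxed cells (-0.08 over all expressed genes), with 53 genes lower and 21 higher. In wild type cells it was -0.02 (-0.01 over all expressed genes), with 44 lower and 30 higher. A change of at least 2-fold on that scale was seen for 1 gene upward and 1 downward in floxed cells, where 4.8% of all expressed genes were up and 1.37% down, and for none in wild type cells, where the shares were 0.376% and 0.538%. The gene upward was Pcdh7 and the gene downward Gm13152, followed by Exoc4, from 16.8 to 8.16 FPKM. The authors' deposited table holds no test between times, and whether the 24 and 48 h values share 1 scaling is not stated in it, so these are sizes without a call.

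Genes just inside and just outside the limit of span went both ways at 48 h, while those nearest 1 FPKM were lower in floxed cells except Maml3. Just above 300 kb lie Jazf1 (301 kb), Tox (303 kb) and Sbf2 (307 kb), of which Tox was lower and the other two higher in floxed cells at 48 h. Just below lie Akap13 (299 kb), AW554918 (298 kb) and Myo1d (298 kb), with 48 h differences of 0.32, -0.51 and 1.38 in log2(FPKM + 1). Just above 1 FPKM in the highest group lie Immp2l (1.12), Itpr2 (1.16) and Ldlrad4 (1.16), and just below lie Arhgef28 (0.949), Slc9a9 (0.877) and Maml3 (0.711). The 48 h differences of Immp2l, Itpr2 and Ldlrad4 were -0.48, -0.47 and -0.55, and those of Arhgef28, Slc9a9 and Maml3 were -0.44, -0.53 and 0.04.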

How the data were processed

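Per the labels' protocols, poly(A) RNA of established mouse cell lines was sequenced on an Illumina HiSeq. The submitters' processing notes name Bowtie2, Cufflinks 2.1, Cuffdiff and the mm10 build, without saying which did what. The annotation, the strandedness and the form of the test behind the q were not given in the sources used here. In the authors' deposited table each gene has 4 FPKM values, 1 per group by the column headers, which name line, time and 4OHT. Each value is taken to combine the 2 libraries of its group, which the headers do not state. The table also has 2 columns of the authors' q-value, which set floxed beside wild type cells at 24 h and at 48 h. Reads of near-identical genes, or of genes on opposite strands, may be split unevenly by the counting.

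The planned fit over 8 libraries needs a value per library and was not run, so calls are those of the authors (q under 0.05), and genes at q = 1 were counted as not tested. The files give no counts, so intervals and detection limits were left out. Log2 differences used a pseudocount of 1. Span was the length of the locus entry, whose starts count from 0, and printed coordinates count from 1. The genes named are the 10 largest called differences in each direction and time, the 10 widest, the 10 most abundant, examples of each role list and the genes nearest each limit, beside the widest in each class of calls. Other names (such as Pcca, Frmd4a and Arid1b) stand for small counts or clear cases and were chosen after their values were seen. The members, role lists and marker lists were chosen with earlier results of these data known. Spans, gene models and promoter windows came from RefSeq GRCm38.p6 and GENCODE M21, and scripts ran on Python 3.11.15 with pandas 2.3.3 and numpy 2.4.6. The steps were tested on simulated data. Alternatives were other limits of span, level and q, a minimum fold, other pseudocounts and scalings, and RefSeq spans.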

Additional observations from a re-analysis of the deposited data

How the results depend on the processing

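No called difference of a very long gene changed sign with equal sums of FPKM or after quantile normalization (70 values each). A change of pseudocount cannot alter the sign of a gene's difference. Of 86 recomputed shares and medians, 66 stayed within 1.5 times the reported value and 20 moved. No median changed sign, although 2 reached 0, and a share called has no sign to change. With a span of 500 kb or more (14 genes), the shares called higher were 21.4% at 24 h and 7.14% at 48 h, and the medians -0.22 and -0.49. With 5 FPKM or more (38 genes) the shares called higher were 7.89% and 2.63%. With excluded genes kept in, 8.52% were called higher at 24 h and 31.2% lower at 48 h. A q under 0.01 left 8.22% higher at 24 h (8.86% over all expressed genes) and, at 48 h, 9.46% higher and 39.2% lower (21.1% and 25.1%). Requiring 1.5-fold with q under 0.05 left 1.37% higher and 5.48% lower at 24 h (5.14% and 5.09%), and 9.46% higher and 25.7% lower at 48 h (17.9% and 20.1%). Medians at 24 and 48 h were both 0 with no filter on level, as many of those 334 genes are at 0, and -0.0500 and -0.16 with a pseudocount of 5, which also gave -0.10 for floxed cells between times. The wild type median between times was -0.0138 at 200 kb, -0.0021 with equal sums and -0.0104 after quantile normalization. Equal sums moved the 48 h median of all expressed genes from -0.06 to -0.15 and that of the very long genes from -0.28 to -0.37. Apart from what the settings themselves change, the cause was not tested. No paired analysis was possible because the table holds 1 value per group, and for the same reason no replicate could be left out. Depth per library is unknown, so how far low levels limit the calls was not tested.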
